A study of Mus musculus with 6 samples.

Results

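Serpina1 and Serpina3 genes encode secreted inhibitors of serine proteases that hepatocytes make in large amounts. A group of 9 genes, of the 17460 symbols in the table, were examined in livers of control and Blnc1 LKO mice: Serpina1a, Serpina1b, Serpina1c, Serpina1d, Serpina1e, Serpina3c, Serpina3k, Serpina3m and Serpina3n. They were taken by symbol and had been chosen by their control against LKO values in an earlier pass over these data, so that this contrast is described for them and not tested. The polyA RNA of 6 whole livers, 3 control and 3 LKO, was sequenced. The mice were of strain C57BL/6 and 9 months of age, and all had received the NASH diet (D09100301) for 24 weeks. In the study's methods, LKO mice were Cas9 transgenic animals transduced by tail vein with an adenovirus carrying sgRNAs against the long noncoding RNA Blnc1, and adenovirus reaches non-parenchymal liver cells poorly. The labels do not give the sex of the animals. Controls of the study's other diet cohort were Cas9 transgenic mice given a GFP adenovirus; for the NASH diet cohort the control vector is not given in the sources used here. The level of Blnc1 itself was not analysed here. Whole liver was sequenced, so a change in the number of cells of a type and a change in RNA per cell cannot be told apart.

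Serpins act as suicide substrates. A protease cuts an exposed loop near the end of the serpin, the reactive centre loop, the loop then inserts into the body of the inhibitor, and the protease is trapped in a covalent complex. The residue just before the cut, named P1, largely sets which protease is caught. Alpha-1-antitrypsin, the product of a single gene in humans, protects tissue from neutrophil elastase, and antichymotrypsin, the human SERPINA3 product, is an acute-phase protein. In mice both genes have been duplicated into clusters of paralogs whose loops have diverged.

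All 9 genes lie on chromosome 12 (GRCm38, the build also called mm10; GENCODE release M21). The Serpina1 genes span 103728156 to 103958975 on the - strand. Serpina3c, on the - strand, and Serpina3k, Serpina3m and Serpina3n, on the + strand, span 104146382 to 104414329. The coding sequences of the 5 Serpina1 genes were 96.3% to 98.5% identical in pairs, those of the 4 Serpina3 genes 83.8% to 92.6%, and those of genes from different clusters 64.4% to 67.2%. The Serpina1 paralogs differ in the reactive loop, among other places. The sequences that follow are the 66 coding bases from the conserved glutamate codon at the start of the loop, read 5′ to 3′ on the coding strand of the GENCODE transcripts, and they are shown because they set what each inhibitor can bind. Capitals mark bases that differ among the 5 Serpina1 genes.
Serpina1a: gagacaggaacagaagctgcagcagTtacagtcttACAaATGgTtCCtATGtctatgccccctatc
Serpina1b: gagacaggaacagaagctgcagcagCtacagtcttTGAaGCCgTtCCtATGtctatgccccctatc
Serpina1c: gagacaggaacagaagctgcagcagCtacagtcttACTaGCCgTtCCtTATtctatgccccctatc
Serpina1d: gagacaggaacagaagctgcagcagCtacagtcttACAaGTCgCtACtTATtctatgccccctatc
Serpina1e: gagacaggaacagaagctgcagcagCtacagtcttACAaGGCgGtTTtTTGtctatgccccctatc

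In 22 codons, 13 of the 66 bases and 7 codons differed, and of the first 10 codons, which include the hinge of the loop, 1 differed. By position from the hinge, codon 17 of the stretch encodes P1. This codon was atg, for methionine, in Serpina1a and Serpina1b, the residue that human alpha-1-antitrypsin carries. It was tat, for tyrosine, in Serpina1c and Serpina1d, and ttg, for leucine, in Serpina1e. The Serpina1a stretch lies at chr12:103853771-103853836 and the Serpina1e stretch at chr12:103947114-103947179, each within 1 coding exon. For the Serpina3 genes the same stretch is shown with capitals at the bases that differ among these 4 genes.
Serpina3c: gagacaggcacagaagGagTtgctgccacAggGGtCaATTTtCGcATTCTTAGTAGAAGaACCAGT
Serpina3k: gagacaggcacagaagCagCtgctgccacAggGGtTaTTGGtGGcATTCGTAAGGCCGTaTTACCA
Serpina3m: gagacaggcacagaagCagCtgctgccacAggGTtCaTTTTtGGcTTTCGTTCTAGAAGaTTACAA
Serpina3n: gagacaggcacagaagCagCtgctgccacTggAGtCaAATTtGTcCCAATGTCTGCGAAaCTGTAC

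The Serpina3 loops differed at 32 of 66 bases and at 15 of 22 codons. The P1 codon was cgt, for arginine, in Serpina3k and Serpina3m, atg in Serpina3n and ctt, for leucine, in Serpina3c. Serpina3k, also named contrapsin, is known as an inhibitor of trypsin-like proteases, which cut after basic residues. Serpina3n inhibits granzyme B and cathepsin G and is the member best known as an acute-phase gene.

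This similarity limits how reads can be assigned. Windows of 50 bases along 1 transcript of each gene were searched for in 141767 GENCODE transcripts on both strands. In Serpina1a 19.1% of the windows, and in Serpina1c 20.7%, occurred in no other gene, and 69.3% of the Serpina1a windows were also present in Serpina1c. The share was 49.1% for Serpina1d, 64.2% for Serpina1b and 64.4% for Serpina1e. It was 80.9% to 95.7% for the 4 Serpina3 genes. With windows of 100 bases the share rose to 39.0% for Serpina1a and 30.7% for Serpina1c and was at least 70.7% for the other 7 genes. The read length and the treatment of reads with several matches are not given in the sources used here, so the split of reads between Serpina1a and Serpina1c, and to a lesser degree Serpina1d, is uncertain. In the annotation, the gene model of Serpina1b reaches past Serpina1d, Serpina3k and Serpina3m share 60 exon bases, and 31.5% of the exon bases of Serpina1c lie in exons of B430119L08Rik.

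**Figure D1:**
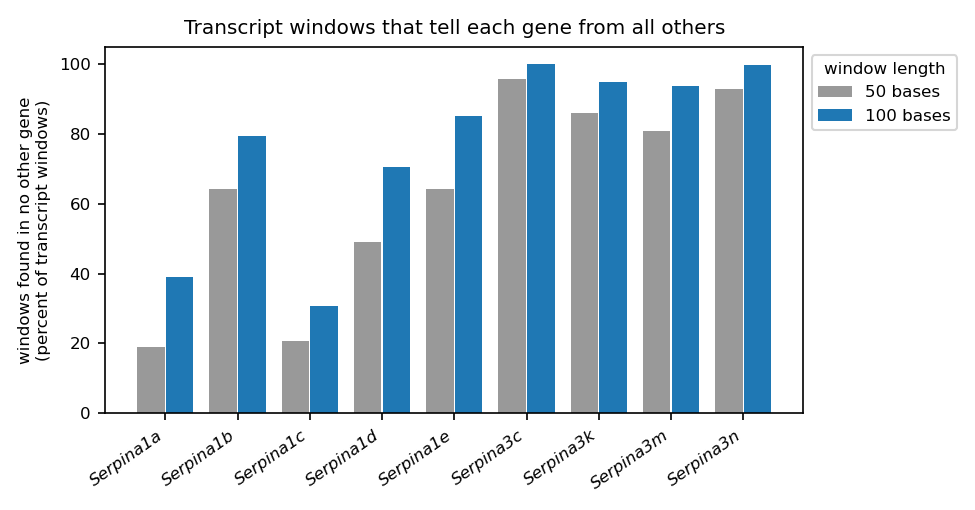
Share of transcript windows of 50 bases (grey) and 100 bases (blue) that occur in no other GENCODE gene, in percent of all windows of the transcript, for each of the 9 genes. Serpina1a and Serpina1c have the lowest bars at both window lengths, at 19.1% and 20.7% for 50 bases.

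The deposited value of a gene is its number of reads over the size factor of the liver, here called normalized read count. It has no correction for length, so levels of different genes were compared per kilobase of the longest GENCODE transcript. Reads on listed genes numbered from 65384969 to 89350181 per liver. In control livers, Serpina1b and Serpina3k had the highest levels, with 114674 ± 3553 and 113514 ± 21643 normalized reads per kilobase (mean ± SD, n = 3 livers in this and the next 2 sentences), and their order is within the spread. Serpina1c and Serpina1d followed with 53480 ± 5311 and 47760 ± 3497 reads per kilobase, again with overlapping spreads. Below these came Serpina1a with 33416 ± 2335, Serpina3n with 22496 ± 1741, Serpina3m with 12070 ± 888 and Serpina1e with 7302 ± 5316 reads per kilobase, of which the last pair did not differ beyond the spread. Serpina3c stood apart at 7.34 ± 1.94 reads per kilobase (SD, n = 3). The LKO livers gave the same order except that Serpina3k, at 160354 ± 34781 reads per kilobase, lay above Serpina1b, at 128387 ± 11781 (SD, n = 3 each), with overlapping spreads.

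**Figure D2:**
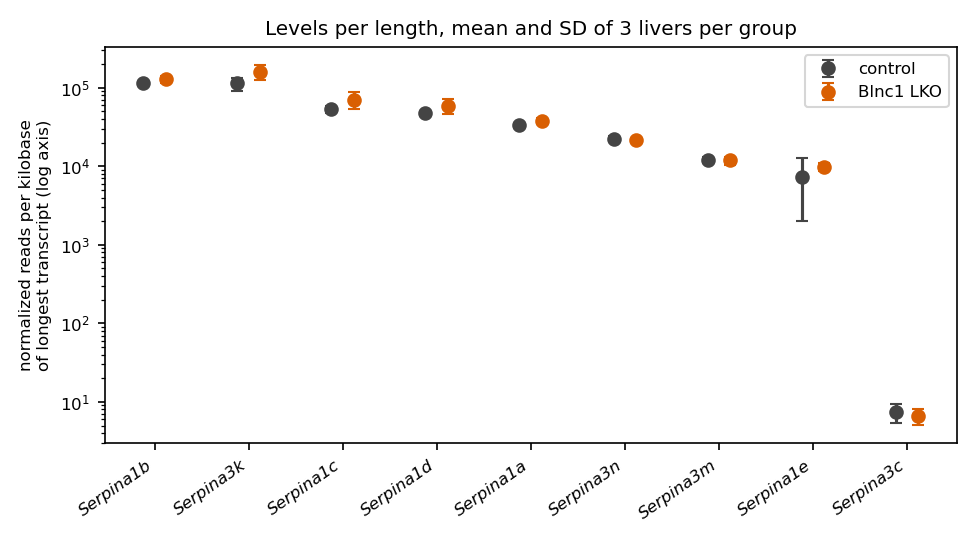
Normalized reads per kilobase of the longest transcript on a log axis, as mean and SD of 3 control livers (grey) and 3 Blnc1 LKO livers (orange), genes ordered by the control level. Serpina1b and Serpina3k lead, and Serpina3c lies far below the others, at 7.34 reads per kilobase in control livers against 7302 for the next lowest, Serpina1e.

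For Serpina1c, which has tyrosine at P1, the normalized read count was 64447, 77220 and 76694 in control livers 1 to 3 and 122454, 78720 and 87769 in LKO livers 1 to 3. All LKO livers lay above all control livers, but the lowest LKO liver exceeded the highest control liver by little, and LKO replicate 1 lay far above the rest. The log2 fold change, on the log2(value + 1) scale used throughout, was 0.38 (standard error 0.16, limma). Serpina1d, also with tyrosine, counted 62539, 65199 and 71993 in control and 102698, 67860 and 76916 in LKO livers. Here LKO replicate 2 fell within the control range, and the log2 fold change was 0.29 (standard error 0.14). Both values depended on LKO replicate 1, and without this liver they were 0.20 and 0.12.

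The methionine pair had smaller log2 fold changes than the tyrosine pair, a difference that was not tested. Serpina1b, with the highest count of the 5 paralogs, gave 197189, 199859 and 209117 in control and 245310, 204121 and 229223 in LKO livers. The groups overlapped, since LKO replicate 2 lay below control replicate 3. Serpina1a gave 49991, 57005 and 51498 in control and 66745, 57964 and 56147 in LKO livers, with LKO replicate 3 below control replicate 2. Log2 fold changes were 0.16 (standard error 0.11) for Serpina1b and 0.19 (standard error 0.09) for Serpina1a, and 0.10 and 0.11 without LKO replicate 1. In this replicate all of Serpina1a to Serpina1d had their highest value.

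Summed over the 5 genes, the alpha-1-antitrypsin count was 380304, 420431 and 416518 in control livers and 552016, 426328 and 464345 in LKO livers. The LKO mean was 1.19 times the control mean, and the nearest livers of the groups, control replicate 2 and LKO replicate 2, were close to each other. For Alb, the most abundant liver mRNA, the ratio of means was 1.01, and LKO replicate 1 had the highest value, at 4651993. Serpina1a and Serpina1b, with methionine at P1, made up 62.9% ± 1.97 of the summed Serpina1 count in control and 59.8% ± 2.85 in LKO livers (SD, n = 3 each). Serpina1c and Serpina1d, with tyrosine, made up 34.3% ± 1.22 and 36.9% ± 3.43 (SD, n = 3 each). These shares carry the uncertainty of reads that Serpina1a and Serpina1c have in common.

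**Figure D3:**
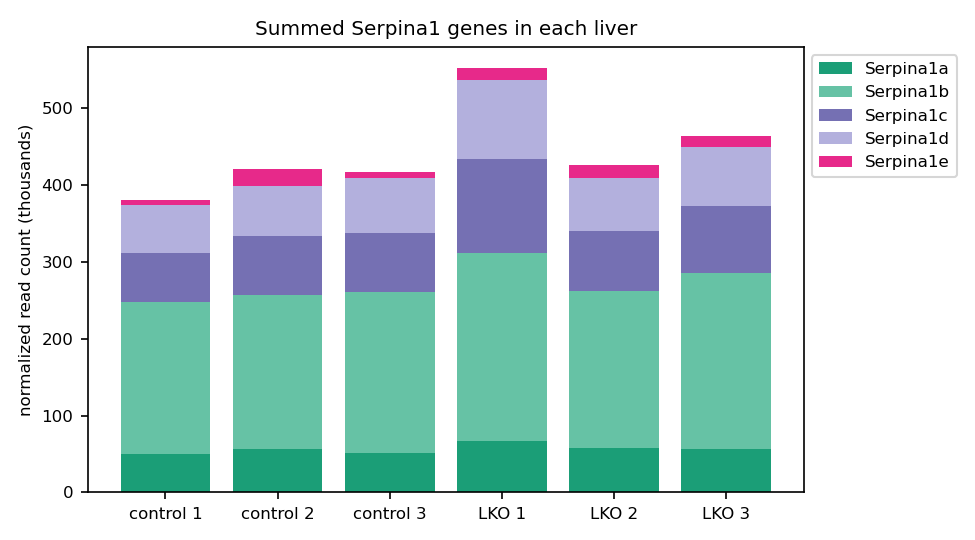
Normalized read counts of Serpina1a to Serpina1e stacked for each of the 6 livers from 0. LKO replicate 1 has the highest sum, 552016, and the thin top segment, Serpina1e, is widest in control replicate 2, where it is 5.03% of the sum.

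Serpina1e, the paralog with leucine at P1, followed another course. Its normalized read count was 6139, 21149 and 7215 in control livers and 14808, 17663 and 14290 in LKO livers. Control replicates 1 and 3 were below all LKO livers, control replicate 2 was above them, and the LKO livers lay close together. Its log2 SD was 0.97 among control and 0.16 among LKO livers, and its highest value was 3.45 times its lowest. Over the 6 livers it spanned 1.78 on the log2 scale, more than 99.5% of the 12488 genes with a mean count of at least 100, whose median span was 0.27. The log2 fold change was 0.67 (standard error 0.39) in limma and 0.44 in edgeR and DESeq2 on reads recovered from the values. It also depended on which control livers entered. In limma it was 1.22 without control replicate 2, 0.33 without control replicate 1 and 0.45 without control replicate 3. Without control replicate 2, its highest liver, Serpina1e passed the threshold over all genes. This contrast chose the gene, so nothing is read from that call. As a share of the Serpina1 sum, Serpina1e was 1.61%, 5.03% and 1.73% in control and 2.68%, 4.14% and 3.08% in LKO livers.

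By a fixed rule, the genes nearest to a member were those whose log2 values, centred on their own mean, differed least from it over the 6 livers, as a root mean square difference among 12487 genes. The 3 nearest to Serpina1e were Asns, encoding asparagine synthetase, at 0.25, the glucuronosyltransferase gene Ugt1a5 at 0.26 and Slc6a7 at 0.27. Asns counted 80.2, 167 and 70.3 in control and 127, 151 and 113 in LKO livers, again with control replicate 2 the highest. Genes were also looked up after their values had been seen. Onecut1, which encodes the hepatocyte factor HNF6, had rank 5 at 0.28, with 346, 648 and 273 in control and 664, 639 and 527 in LKO livers. Serpina4-ps1, by its symbol a pseudogene of the same serpin clade, ranked 35 at 0.47, with 805, 4752 and 1032 in control and 3000, 3769 and 5102 in LKO livers. Serpina1a, the closest of the other Serpina1 genes, differed from Serpina1e by 0.57, and Serpina1c and Serpina1d differed from each other by 0.08.

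RefSeq promoters (GRCm38.p6, 250 bases before to 50 after the gene start) were found for 7 members, all but Serpina3k and Serpina3m, and those of the 5 Serpina1 genes were 91.7% to 98.4% identical over aligned bases in pairs. The promoter of Serpina1e matched that of Serpina1b most closely, at 98.4%. Pairs with Serpina1e had 102 to 124 gap bases, against 4 to 24 for the other Serpina1 pairs. Their percentages thus rest on fewer aligned bases and are not directly comparable with the others.

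The Serpina3 genes were dominated by Serpina3k, which made up 74.6% to 86.2% of their summed count in each liver. Its normalized read count was 190441, 279348 and 230706 in control livers and 341519, 253185 and 394840 in LKO livers. LKO replicates 1 and 3 lay above all other livers and LKO replicate 2 between control replicates 3 and 2, so the groups overlapped. The mean was 233498 ± 44519 in control and 329848 ± 71545 in LKO livers (SD, n = 3 each), and the log2 fold change 0.49 (standard error 0.20). It stayed between 0.35 and 0.67 with each liver left out in turn.

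Serpina3m and Serpina3n, its neighbours in the cluster, had log2 fold changes close to 0. Serpina3m gave 19687, 18747 and 21636 in control and 22478, 18487 and 18217 in LKO livers. LKO replicate 1 lay above all control livers and LKO replicates 2 and 3 below them, so the LKO values lay on both sides of the control range. Serpina3n, which has methionine at P1, gave 45119, 50499 and 43680 in control and 44222, 44732 and 45077 in LKO livers. Apart from the higher control replicate 2, these values lay within a narrow band, and the LKO livers had an SD of 430. Log2 fold changes were -0.03 (standard error 0.09) and -0.05 (standard error 0.07), and their sign changed when single livers were left out. The ratio of Serpina3k to Serpina3n was 4.22, 5.53 and 5.28 in control and 7.72, 5.66 and 8.76 in LKO livers. All LKO livers lay above the control livers, LKO replicate 2 only just so. Other ratios computed overlapped between the groups. That of Serpina1e to Serpina1a was 0.123, 0.371 and 0.14 in control and 0.222, 0.305 and 0.255 in LKO livers. That of Serpina1c to Serpina1a was 1.29, 1.35 and 1.49 in control and 1.83, 1.36 and 1.56 in LKO livers. Since this contrast chose the genes, nothing is read from the ratios.

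Serpina3c, which RefSeq also lists under a name for kallikrein-binding protein, was nearly silent, with 9 to 19 reads per liver. Its counts were 16.8, 20.2 and 11.7 in control and 10.7, 16.9 and 15.9 in LKO livers, and a difference was not detectable at this depth. Its level was thus far under that of Serpina3n, although the RefSeq promoters of these genes were 93.5% identical over aligned bases, with 19 mismatches. Both promoters are shown in full for this reason, with capitals at the bases that differ between them or lack a partner in the alignment. That of Serpina3c is chr12:104153823-104154122 on the - strand and that of Serpina3n chr12:104406458-104406757 on the + strand.
Serpina3c: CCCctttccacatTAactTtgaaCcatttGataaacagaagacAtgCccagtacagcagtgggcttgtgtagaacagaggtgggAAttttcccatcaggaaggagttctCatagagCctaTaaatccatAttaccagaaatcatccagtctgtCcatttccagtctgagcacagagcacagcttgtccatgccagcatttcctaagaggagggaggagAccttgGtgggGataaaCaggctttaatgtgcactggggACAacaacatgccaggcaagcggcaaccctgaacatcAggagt
Serpina3n: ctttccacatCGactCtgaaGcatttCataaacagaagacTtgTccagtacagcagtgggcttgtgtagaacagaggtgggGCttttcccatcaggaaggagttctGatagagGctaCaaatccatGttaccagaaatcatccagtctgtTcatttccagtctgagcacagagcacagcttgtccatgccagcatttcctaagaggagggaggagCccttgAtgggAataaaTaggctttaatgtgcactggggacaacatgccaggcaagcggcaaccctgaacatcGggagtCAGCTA

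The motif TATAAA was found in the Serpina3c promoter and not in that of Serpina3n, and in 13.6% of all 32851 promoters, searched on both strands. Such a match of letters does not show that a factor binds, and its part in the levels was not tested.

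**Figure D4:**
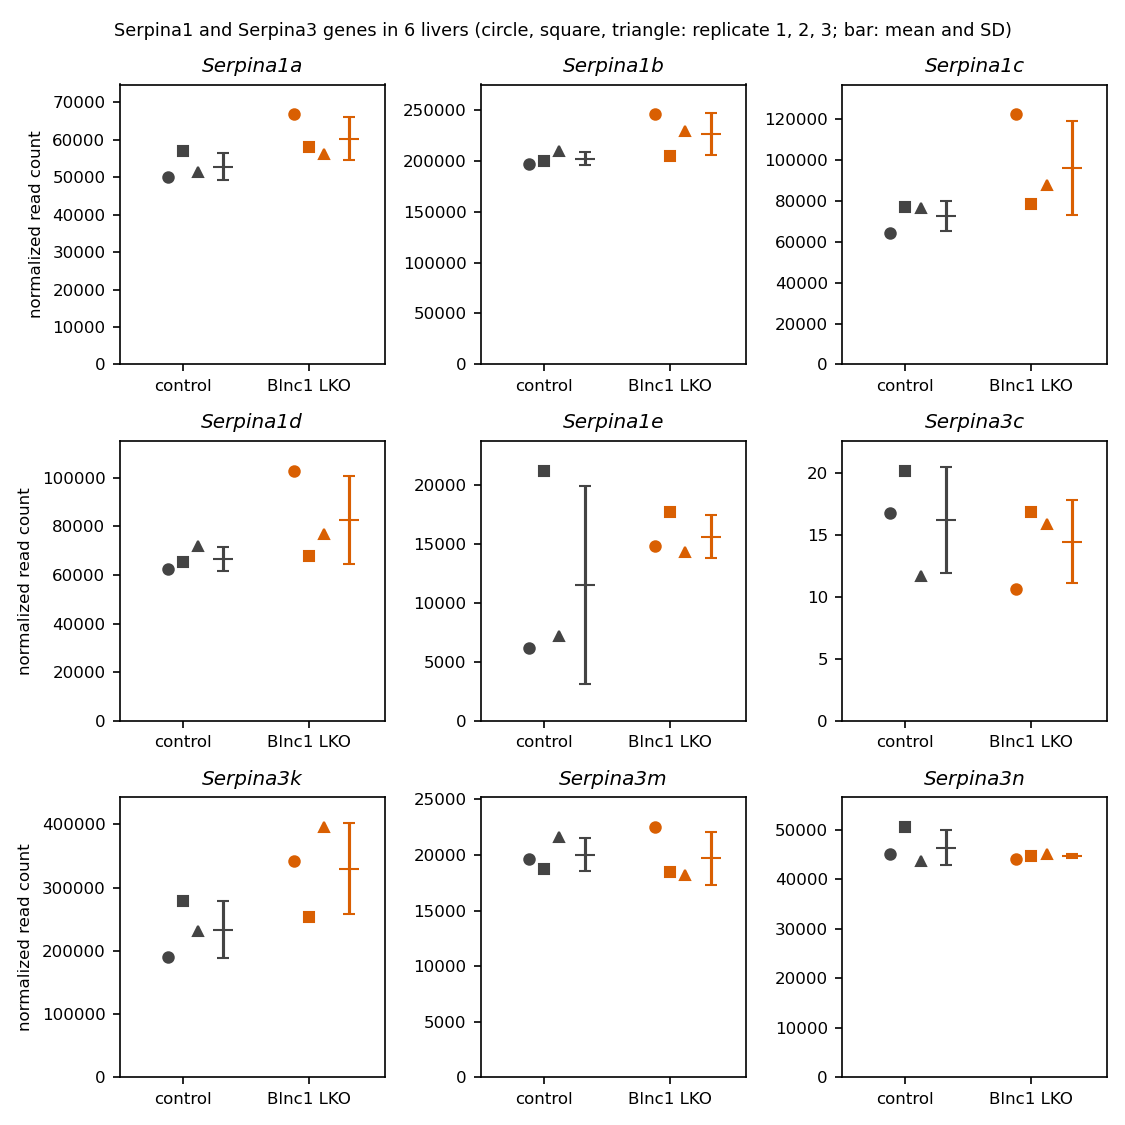
Normalized read count of each of the 9 genes in control (grey) and Blnc1 LKO (orange) livers, each axis from 0, with replicates 1, 2 and 3 as circle, square and triangle and the mean and SD beside them. LKO replicate 1 is the highest liver for Serpina1a to Serpina1d, control replicate 2 is the highest for Serpina1e, and Serpina3n varies least.

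Across the 9 genes, 6 had a higher and 3 a lower mean log2 value in LKO livers, and the median log2 fold change was 0.19, beside -0.001 over all 17297 genes tested. All 9 passed the filter on low values. In limma over all genes 0 of 9 passed an adjusted p under 0.05, where 0.00578% of all genes did, and 2 of 9 had an unadjusted p under 0.05, where 5.68% did. On reads recovered from the values, edgeR called 0 of 9 (0.0116% of all genes) and DESeq2 0 of 9 (0.486% of all genes). The groups did not overlap for 1 of 9, Serpina1c, against 10.6% of all genes. Because this contrast chose the genes, nothing is read from these counts. Together the 9 genes held 0.857%, 1.04% and 0.953% of the normalized reads in control livers and 1.23%, 1.04% and 1.24% in LKO livers.

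Growth hormone, secreted in pulses in male mice, acts on the liver through STAT5b and maintains male-biased genes, and the rat serpin gene Spi2.1 is a classical target of this route. Like the other lists, that of 18 male-biased genes was chosen with earlier results of these data known. Of the 18 genes 18 had a higher mean in LKO livers, beside 8582 of all 17297 genes tested. The median log2 fold change was 0.74, and 0 passed in limma. In limma 13 had an unadjusted p under 0.05, where 5.68% of all genes did. DESeq2 called 2, where it called 0.486% of all genes. The mean deviation of the 18 genes on the log2 scale was -0.81, -0.11 and -0.69 in control and 1.02, -0.05 and 0.64 in LKO livers. That of Serpina3k in the same livers was -0.52, 0.03 and -0.25 in control and 0.32, -0.11 and 0.53 in LKO. In both, control replicates 1 and 3 were lowest, LKO replicates 1 and 3 highest, and control replicate 2 and LKO replicate 2 lay between. Serpina1c had this order too, with -0.36, -0.10 and -0.11 in control and 0.56, -0.07 and 0.08 in LKO livers. Its control replicates 2 and 3 were nearly equal. Serpina1c and the list peaked in LKO replicate 1, Serpina3k in LKO replicate 3. Serpina1e shared the low control replicates 1 and 3 with this list, at -1.01 and -0.77, but had its maximum of 0.78 in control replicate 2. The genes nearest to Serpina3k by the same rule were Ccdc148 at 0.10, the complement gene C8b at 0.11 and Ugt2b38, itself on the male-biased list, at 0.12. C8b counted 4233, 6311 and 4473 in control and 7045, 5841 and 7406 in LKO livers. Members of the list with no overlap, a mean count of at least 100 and the largest differences were the steroid dehydrogenase gene Hsd3b5, at 4.04 on the log2 scale (standard error 0.98; limma, adjusted p = 0.555), and the P450 genes Cyp4a12a and Cyp4a12b, with 1.51 and 1.47 (adjusted p = 0.577 and 0.548, limma). The part of this pattern in the Serpina3k and Serpina1c values was not tested.

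**Figure D5:**
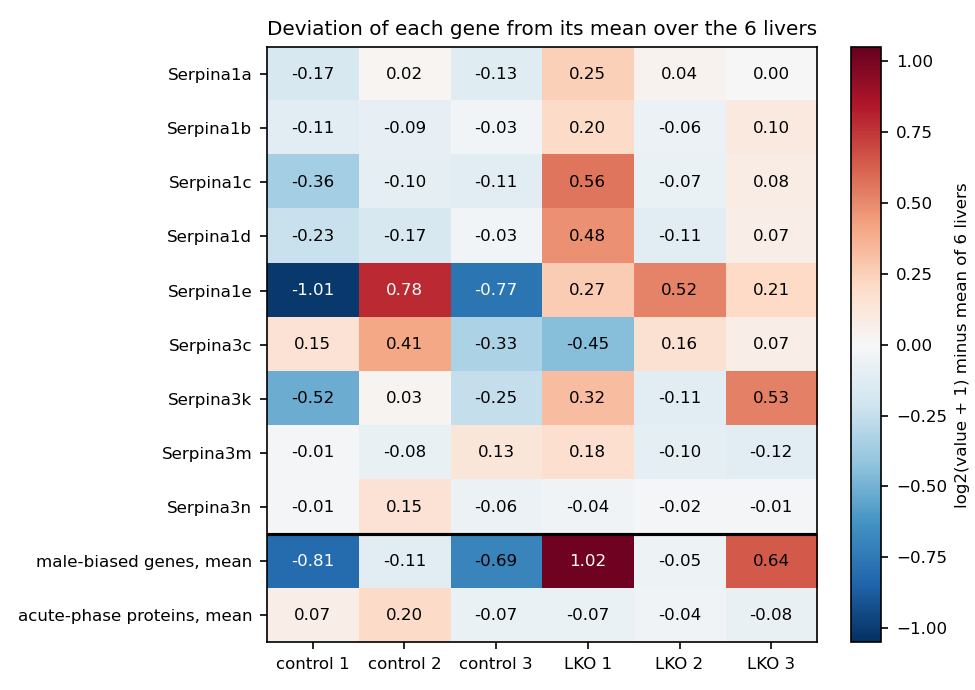
Deviation of log2(value + 1) from the mean of the 6 livers for each of the 9 genes, with the mean deviation of 18 male-biased and 19 acute-phase genes below the line. Red is above and blue below the gene's own mean; Serpina3k runs from -0.52 in control replicate 1 to 0.53 in LKO replicate 3, and Serpina3n stays within -0.06 and 0.15.

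Stat5b itself counted 4033, 4050 and 4156 in control and 3763, 3874 and 3899 in LKO livers, a log2 fold change of -0.09 (adjusted p = 0.93, limma). The 9 genes of growth hormone signalling had a median log2 fold change of 0.01, with 5 higher, 4 lower and 0 called in limma (1 at an unadjusted p under 0.05). Of 14 female-biased genes 9 were higher and 5 lower, with a median of 0.12, 2 at an unadjusted p under 0.05 and 0 called in limma. Without overlap and with a mean count of at least 100 was Cyp17a1, a steroid hydroxylase gene, which counted 2724 ± 513 in control and 1227 ± 430 in LKO livers (SD, n = 3 each, adjusted p = 0.523, limma). Cyp3a44 and Cyp3a41a, with mean counts under 100, were higher in LKO livers without overlap, by 1.33 and 1.26 on the log2 scale (adjusted p = 0.824 and 0.891, limma). Cyp3a41a counted only 0, 2.13 and 1.07 in control and 2.38, 2.82 and 5.85 in LKO livers. These counts are close to the added value of 1, so its fold change is not reliable.

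Serpina3n is usually grouped with the acute-phase proteins. Of 19 acute-phase genes 4 had a higher and 15 a lower mean in LKO livers, with a median log2 fold change of -0.14; 0 passed in limma, 4 had an unadjusted p under 0.05 and DESeq2 called 1. Orm2, an orosomucoid gene, counted 8755 ± 1259 in control and 6001 ± 957 in LKO livers (SD, n = 3 each; adjusted p = 0.555, limma), and haptoglobin, Hp, 369004 ± 12911 and 310656 ± 31596 (SD, n = 3 each; adjusted p = 0.894, limma). Orm1 had a log2 fold change of -0.15 (adjusted p = 0.899, limma). The signal route to these genes, 11 genes of the IL-6 and STAT3 pathway, had 4 higher and 7 lower with a median of 0.00 as rounded, 1 at an unadjusted p under 0.05 and 0 called in limma. Jak1 and the receptor gene Osmr were lower in all LKO livers than in all control livers, by log2 fold changes of -0.10 and -0.19 (adjusted p = 0.891 and 0.896, limma).

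Other serpins gave the following counts. Of 14 further clade A genes measured 5 were higher and 9 lower in LKO livers, with a median of -0.11, 1 at an unadjusted p under 0.05 and 0 called in limma. Serpina3g, a paralog in the same cluster, counted 1998, 1988 and 2070 in control and 1633, 1768 and 1742 in LKO livers, without overlap (log2 fold change -0.24, adjusted p = 0.577, limma). Serpina6, which encodes corticosteroid-binding globulin, had 25421 ± 4261 and 24443 ± 7419, and Serpina7, thyroxine-binding globulin, 27840 ± 1257 and 27982 ± 1969 (SD, n = 3 each). Of 15 serpins of other clades 7 were higher and 8 lower, with a median of -0.01, 2 at an unadjusted p under 0.05 and 0 called in limma. Serpinh1, the collagen chaperone HSP47, counted 4468 ± 159 in control and 3497 ± 480 in LKO livers (SD, n = 3 each; adjusted p = 0.619, limma). Serpini1, encoding neuroserpin, had a log2 fold change of -0.48 (adjusted p = 0.824, limma). Serpinc1, which encodes antithrombin, had 0.04 (standard error 0.09, adjusted p = 0.988, limma).

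The proteases that serpins restrain were measured alongside. Of 14 serine protease genes 12 passed the filter, 8 higher and 4 lower in LKO livers, with a median log2 fold change of 0.14, 3 at an unadjusted p under 0.05 and 0 called in limma. F11, coagulation factor XI, counted 3538, 3388 and 3456 in control and 4841, 3868 and 3611 in LKO livers (adjusted p = 0.87, limma), and Cela1 1103 ± 78.2 and 1253 ± 67.4 (SD, n = 3 each; adjusted p = 0.865, limma). Gzmb, the granzyme B gene, had 296, 176 and 287 in control and 137, 208 and 100 in LKO livers, with overlap (log2 fold change -0.79, adjusted p = 0.84, limma). Transcription factors that act on alpha-1-antitrypsin promoters had 6 of 8 higher, a median of 0.04, 0 at an unadjusted p under 0.05 and 0 called in limma. Hnf4a counted 32330 ± 1384 in control and 33185 ± 2591 in LKO livers (SD, n = 3 each). The 14 genes of serpin folding and export, such as the lectin chaperones and the cargo receptor Surf4, had 13 higher and 1 lower with a median of 0.05, 0 at an unadjusted p under 0.05 and 0 called in limma.

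Defining markers of hepatocytes were abundant in all livers, each with a mean count of at least 51800 over 9 measured genes, and their median log2 fold change was -0.06. Transferrin, Trf, was lower in all LKO livers (log2 fold change -0.23, adjusted p = 0.971, limma). For markers of other cell types the median log2 fold changes were 0.08 for 10 macrophage, 1.06 for 9 neutrophil, -0.15 for 10 stellate cell, -0.12 for 8 sinusoidal endothelial, -0.03 for 8 cholangiocyte and -0.09 for 8 lymphocyte genes, with 0 called in limma and 5, 0, 4, 4, 0 and 0 at an unadjusted p under 0.05. The summed macrophage markers ranged from 60967 to 68919 in control and from 65215 to 74448 in LKO livers. The sums of stellate markers, of which Dcn had the highest count, ranged from 114396 to 125743 and from 95676 to 114288. DESeq2 called Col1a1, Col1a2, Col3a1 and Acta2 lower (adjusted p = 0.00462, 0.0161, 0.0247 and 0.0157). LKO replicate 1, the liver with the highest Serpina1 sum, had the lowest stellate sum, 95676, and LKO replicate 3 had 95715. Adgre1, a macrophage gene, was higher, and the endothelial genes Pecam1, Cdh5 and Stab1 were lower, in all LKO livers than in all control livers, with adjusted p = 0.84, 0.818, 0.824 and 0.857 in limma. The part of cell types in the serpin values was not tested.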

How the data were processed

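PolyA-selected liver RNA of 3 control and 3 Blnc1 LKO livers was sequenced; alignment by the authors was to mm10 (STAR), with HTSeq for gene counts and DESeq2 for their comparison. Versions, annotation and strand setting are not given in the sources used here. The deposited signal is a gene's read count over the liver's size factor. Table columns named for wild-type and knockout livers were matched by number to the labels Ctrl and LKO. All values (100%) were whole multiples, within 0.01, of the value of 1 read, and 65384969 to 89350181 reads per liver were recovered.

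limma 3.58.1 (R 4.3.3) was fitted with a trend to log2(value + 1) of 17297 genes (3 or more livers at 1 or above), comparing LKO with control without covariates, with Benjamini-Hochberg adjustment at 0.05. edgeR 4.0.16 (quasi-likelihood) and DESeq2 1.42.0 on recovered reads were alternatives. The fits were tested on simulated data. The labels do not say that each liver came from a separate mouse, so p-values measure the spread between these samples; an exact permutation test of 3 against 3 cannot go below 0.1. Replicates differed beyond counting noise (chi-square per degree of freedom 20.8 to 70.0).

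The 9 members and the gene lists were chosen with earlier results of these data known. Besides members, genes were named if past the threshold or, up to 3 per list, if without overlap, with a mean of at least 100 and the largest fold change, and the 3 nearest genes of members spanning over 1 log2 unit. Other genes named were chosen after their values were seen. Sequences are from GENCODE M21 and RefSeq (GRCm38). 1 gene of the fixed lists and the search of member promoters for motifs other than TATAAA are not reported here.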

Additional observations from a re-analysis of the deposited data

How the results depend on the processing

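The number of genes past an adjusted p under 0.05 was 1 in limma and depended on the test. It was 2 without a filter on low values, 2 with edgeR and 84 with DESeq2 on recovered reads, and 0 to 13 with each liver left out in turn (0 without control replicate 1, 3 without control replicate 2, 2 without LKO replicate 1 and 13 without LKO replicate 2). Of the 9 serpin genes 0 passed in any of these fits except without control replicate 2, where Serpina1e passed (range with a liver left out 0 to 1). Nothing is read from that call, since the contrast chose the gene. Of the other listed genes 0 passed except with DESeq2, which called 7. With the replicate number as a block in limma 0 genes passed (912 at an unadjusted p under 0.05). Same-numbered livers did not deviate together (correlations of -0.12 to -0.01), but this cannot exclude a pairing in the design. The log2 fold changes of Serpina1a to Serpina1e and of Serpina3k kept their sign under all 13 alternatives, that of Serpina1e between 0.33 and 1.22. Those of Serpina3m and Serpina3n, close to 0, changed sign when single livers were left out. So did that of Serpina3c, which was -0.15 (standard error 0.33) and rested on 9 to 19 reads per liver. Scaling by library size alone or TMM, both in edgeR, moved no member's value by more than the replicate SD. That SD is wide for Serpina1e, whose value fell from 0.67 in limma to 0.44 in these fits and in DESeq2. limma compares means of log2 values, while edgeR and DESeq2 model the counts. The LKO mean count of Serpina1e was 1.36 times the control mean. Per kilobase of the union of exons instead of the longest transcript, Serpina1b in control livers fell to 83667 and Serpina1a to 28838. The length used rose from 1762 to 2415 bases for Serpina1b and from 1581 to 1832 for Serpina1a. The causes of the other shifts were not tested.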

Other observations

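Genes of neutrophil granule proteases, the classical targets of alpha-1-antitrypsin, had their highest counts in LKO replicate 3. These genes were picked after their values had been seen. Elane, the neutrophil elastase gene, counted 17.7, 25.6 and 16 in control and 29.8, 26.3 and 131 in LKO livers. Ctsg, encoding cathepsin G, counted 5.59, 2.13 and 1.07 in control and 1.19, 7.52 and 49.3 in LKO livers. Prtn3, encoding proteinase 3, counted 128, 309 and 101 in control and 129, 282 and 439 in LKO livers. For this gene control replicate 2 and LKO replicate 2 were also high. The 9 neutrophil markers measured summed to 1861, 1553 and 1224 in control and 1170, 1982 and 7493 in LKO livers. LKO replicate 3 was the highest liver in each of these, whereas the Serpina1 sum was highest in LKO replicate 1.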
